A study of Mus musculus with 32 samples.

Results

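Itgam, Itgax and Itgad lie side by side on mouse chromosome 7 and encode CD11b, CD11c and CD11d, the alpha subunits of 3 beta-2 integrins. Their chromatin accessibility was examined in dendritic cells (DC) from skin-draining lymph nodes, as peaks of ATAC-seq, an assay in which the transposase Tn5 inserts adapters into open DNA. The window ran from 100 kb before Itgam to 100 kb after Itgad (mm10, chr7:127962640-128305504, 342.9 kb). It held 61 of the 90465 consensus regions of the series, a consensus region being any 100 bp or more that 3 or more libraries, of 32, had inside a peak. The members and the window were chosen by an excess of peak signal in libraries from Cre-positive mice over libraries from Cre-negative mice. That contrast is therefore described below without a test, beside the same measure over the whole genome.

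Beta-2 integrins are adhesion receptors of leukocytes in which one alpha subunit pairs with the common beta subunit encoded by Itgb2. CD11b with its beta subunit forms the receptor Mac-1, which binds ICAM-1, fibrinogen and complement fragments. CD11c is the surface marker by which mouse DC are usually identified, and CD11d is found on some macrophages and other leukocytes. The promoter of Itgax drives Cre recombinase in CD11c-Cre mice, which are used to delete floxed genes in DC.

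The cells were sorted as resident cDC1 and cDC2 and as migratory migDC1, migDC2 and DN migDC, and the labels name CD11b, the product of Itgam, in the sort of cDC2 and migDC2. The source names of DN migDC also carry CD11b and CD103, without saying whether cells with or without them were taken. All 28 floxed libraries carried loxP-flanked Ifngr1, the gene of an interferon-gamma receptor chain, on both alleles (IFNgr1flfl): 14 came from CD11cCREneg mice, labelled as Ifngr1 WT, and 14 from CD11cCREpos mice, labelled as Ifngr1 knockout. Each cell type had 3 libraries per genotype, except migDC1 with 2. A further 4 libraries of migDC2 came from mice for which no floxed allele and no Cre is named, 2 wild type (WT) and 2 germline knockout (IFNgr1-/-). In the floxed libraries the presence of the CD11c-driven Cre and the loss of Ifngr1 go together and cannot be told apart. The labels name neither the Cre line nor where its transgene sits. If that transgene holds sequence of the Itgax locus, reads from it would be placed at the same coordinates, so peak signal from transgene copies and from the endogenous locus cannot be told apart in the Cre-positive libraries, and their ratios below need not be accessibility of the endogenous genes. The labels give no age and do not say which libraries share a mouse, so the spread between libraries may be technical.

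Peak signal is given here as a share. The deposited signal of a peak sums over its width, and the part of it that falls in an interval was divided by the sum over that library's own list and expressed in ppm of that sum. Floxed lists held 38455 to 74975 peaks and germline lists 32649 to 42446, and Cre-positive lists (39312 to 74975) covered the same range as Cre-negative ones (38455 to 74330). The lists hold no read counts, so the depth of each library is unknown. The summed share of 7 cDC1 marker genes was 1035 to 1641 ppm in cDC1 and migDC1 libraries and 555 to 654 ppm in the other floxed libraries. That of 7 cDC2 genes was 653 to 921 ppm in cDC2, 400 to 452 ppm in migDC2 and 163 to 378 ppm in the rest, and that of 6 migration genes was 1179 to 1705 ppm in migratory and 367 to 507 ppm in resident libraries. No library held a peak at the neutrophil gene Ly6g or at the natural killer cell genes Ncr1 and Gzma, but other genes of these lists had peaks. Of 32 libraries, the neutrophil genes Csf3r, S100a9, Cxcr2 and S100a8 had a peak in 32, 13, 12 and 1. The natural killer genes Klrb1c and Eomes had one in 24 and 20, so these lists do not show that such cells were absent. The share at Ifngr1 was 67.6 to 123 ppm in Cre-negative and 67.5 to 122 ppm in Cre-positive libraries, and these peaks were not placed on the deleted exon, so they do not check the genotype.

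The 2 promoters shown here are those for which the RefSeq table (GRCm38.p6, the coordinates of mm10) holds a sequence, because the start of Itgam lies outside the excess and the start of Itgax inside it. Both run from 250 bases before to 50 after a start site on the plus strand, at chr7:128062390-128062689 for Itgam and chr7:128129300-128129599 for Itgax. For Itgax this site lies slightly past the start of the gene body (chr7:128129526), from which distances in kb are counted.
Itgam: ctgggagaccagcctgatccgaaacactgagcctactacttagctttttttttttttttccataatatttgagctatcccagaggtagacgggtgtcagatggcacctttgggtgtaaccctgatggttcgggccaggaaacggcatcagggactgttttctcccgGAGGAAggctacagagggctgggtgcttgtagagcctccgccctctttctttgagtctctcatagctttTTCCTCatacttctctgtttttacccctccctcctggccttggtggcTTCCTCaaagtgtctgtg
Itgax: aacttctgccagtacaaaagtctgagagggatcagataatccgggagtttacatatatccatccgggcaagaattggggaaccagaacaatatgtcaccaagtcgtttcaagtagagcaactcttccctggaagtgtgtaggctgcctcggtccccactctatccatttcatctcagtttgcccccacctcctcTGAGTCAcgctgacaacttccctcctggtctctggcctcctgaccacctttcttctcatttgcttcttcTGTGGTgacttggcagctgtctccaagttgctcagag
Capitals mark matches, on either strand, to GAGGAA (a core bound by PU.1, the myeloid factor encoded by Spi1), TGTGGT (a RUNX core) and TGAGTCA (an AP-1 site). These motifs do not overlap in either promoter. Itgam has GAGGAA at -84 on the plus strand and at -15 and 32 on the minus strand, counted in bases from the start site. Itgax has TGAGTCA at -56 and TGTGGT at 13, both on the plus strand. Of 32851 promoters of this length, 28.3% hold GAGGAA, 16.8% hold TGTGGT and 5.20% hold TGAGTCA, so each match is a description only. Peaks covered the whole Itgax promoter in 32 of 32 libraries. They covered the whole Itgam promoter in 4 of 14 Cre-negative, 6 of 14 Cre-positive and 0 of 4 germline libraries.

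Peak signal around Itgax was higher in every Cre-positive library than in any Cre-negative library of the same cell type. Regions with this excess lay within a stretch of 144.8 kb from inside Itgam to just past Itgad (chr7:128065415-128210199), which held 33 of the 61 regions. This stretch was drawn after the values were seen, from the first to the last region in which every Cre-positive library lay above every Cre-negative one in at least 3 of the 5 cell types. Of its 33 regions 15 met this rule, and 37.5 kb of it held no peak of any library. None of the 28 regions in the rest of the window met it, which follows from how the stretch was drawn.

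In cDC2 the share of the stretch was 178, 179 and 186 ppm in Cre-negative and 469, 500 and 602 ppm in Cre-positive libraries, a ratio of 2.89 ± 0.38 (SD, n = 3 Cre-positive libraries over the Cre-negative mean, as in all ratios below). In cDC1 it was 153, 154 and 165 ppm against 349, 382 and 433 ppm, a ratio of 2.47 ± 0.27 (n = 3). The 2 resident types had the largest mean ratios of the 5, and the difference between cell types was not tested. In migDC1 the share was 119 and 136 ppm in Cre-negative and 240 and 254 ppm in Cre-positive libraries (1.93 ± 0.08, n = 2). In migDC2 it was 157, 162 and 172 ppm against 280, 299 and 319 ppm (1.82 ± 0.12, n = 3). In DN migDC it was 140, 161 and 166 ppm against 247, 285 and 331 ppm (1.84 ± 0.27, n = 3). In all 5 cell types the lowest Cre-positive library was above the highest Cre-negative one.

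Over the 14 Cre-positive libraries the ratio was 2.21 ± 0.50 in the stretch, 1.02 ± 0.05 in the rest of the window and 1.41 ± 0.16 in the whole window. Outside the stretch the groups overlapped in 4 cell types. In migDC1 the Cre-positive libraries (308 and 311 ppm) were above the Cre-negative ones (283 and 298 ppm) there too, by a ratio of 1.07 ± 0.01 (n = 2). Libraries fell into sets by how they were titled, with plain numbers or with letters. In the 2 cell types that had both, the stretch ratio was 1.78 (plain) and 1.85 (lettered) for migDC2, and 1.76 and 1.88 for DN migDC.

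**Figure D1:**
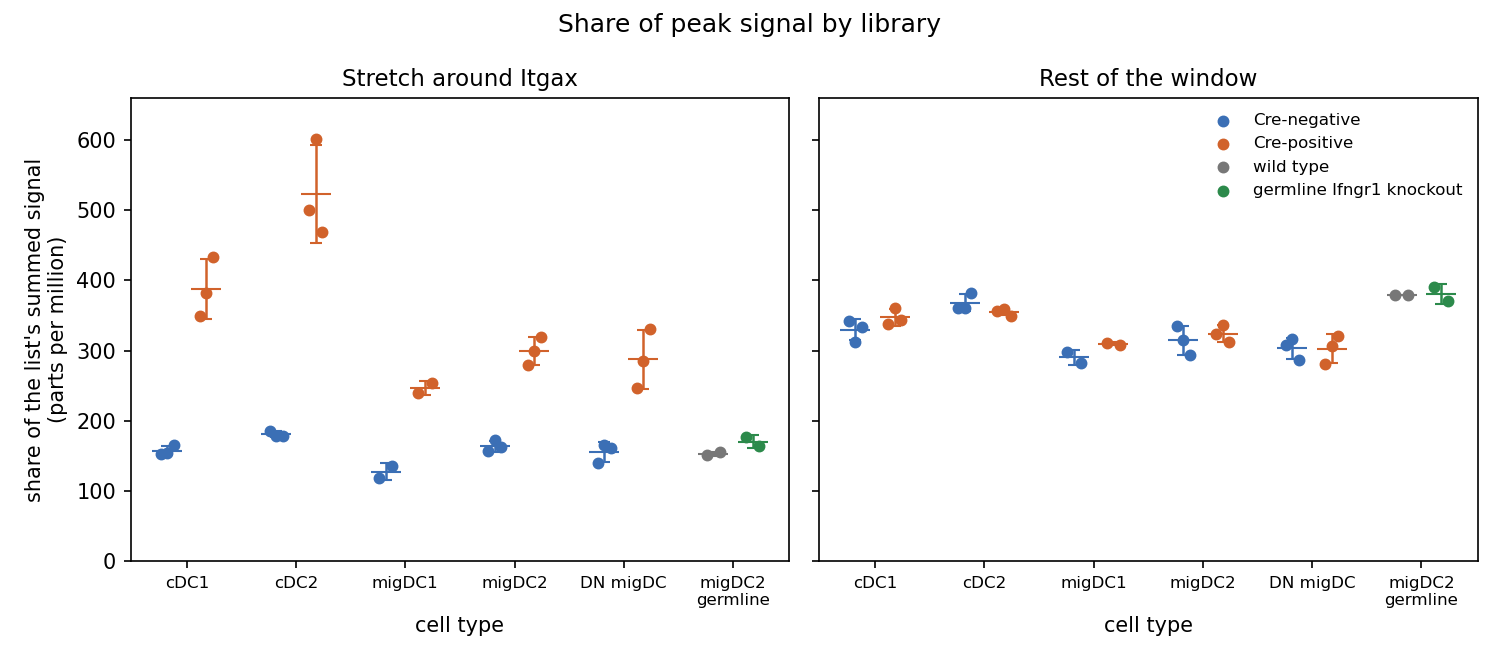
Share of each list's summed peak signal (y axis, ppm) by cell type, in the stretch around Itgax (left) and in the rest of the window (right). Points are libraries, and bars are the mean and SD of 2 or 3 libraries. In the stretch all Cre-positive points sit above the Cre-negative points of their cell type, while the germline knockout points (164 and 177 ppm) sit near the WT points (151 and 155 ppm).

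The germline libraries hold Ifngr1 loss in migDC2 with no CD11c-Cre named in their labels. The share of the stretch was 164 and 177 ppm in knockout and 151 and 155 ppm in WT libraries, so the pairs did not overlap, and the ratio of means was 1.12. The ratio in migDC2 of the floxed libraries was 1.82 ± 0.12 (n = 3). At Itgax itself the germline knockout libraries had 79.5 and 83.9 ppm and the WT libraries 82.0 and 82.8 ppm, a ratio of 0.99. At Itgam the knockout had 30.6 and 33.9 ppm against 26.1 and 27.8 ppm, a ratio of 1.19. The rest of the window had a ratio of 1.0. These values are a description without a test, since a permutation test of 2 against 2 libraries cannot pass, and the 2 cohorts were not tested against each other.

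Itgax, the gene of CD11c, showed the excess over both its promoter and its body. Within its gene body (chr7:128129526-128150657) the share in cDC2 was 74.2, 76.1 and 88.9 ppm without Cre and 182, 215 and 240 ppm with Cre (2.67 ± 0.37, n = 3). In cDC1 it was 49.4, 64.9 and 67.0 ppm against 140, 144 and 168 ppm (2.50 ± 0.25, n = 3). Both resident types thus held more than the highest Cre-negative value in every Cre-positive library. In migDC1 the values were 53.2 and 56.0 ppm against 108 and 122 ppm (2.11 ± 0.18, n = 2). In migDC2 they were 78.3, 80.1 and 83.2 ppm against 135, 148 and 150 ppm (1.79 ± 0.10, n = 3), and in DN migDC 60.4, 69.8 and 75.4 ppm against 96.4, 126 and 148 ppm (1.80 ± 0.38, n = 3). The lowest Cre-positive library of DN migDC, at 96.4 ppm, was the plain-titled one, and the ratio in that cell type was 1.38 in plain and 2.02 in lettered titles. The strongest Itgax peak of a library ranked within the top 0.588 to 2.21% of its list by signal in Cre-positive (median 1.55%) and within the top 4.06 to 15.7% in Cre-negative libraries (median 9.01%).

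The largest Itgax peaks were called with and without Cre and differed in size. At the promoter region (chr7:128128404-128130455), called in all 28 floxed libraries, the ratio was 1.41 to 1.77 over the 5 cell types. At the next large region inside the gene (chr7:128131728-128134566), also called in all 28, it was 1.72 to 2.52. The region at chr7:128138016-128138998 was called in 13 of 14 Cre-negative and 14 of 14 Cre-positive libraries with ratios of 2.15 to 6.04, the highest in migDC1, where 1 of 2 Cre-negative libraries had the call. Another 2 places inside or before the gene were mostly seen with Cre. The region just before the promoter (chr7:128127729-128128276) had a peak in 1 of 14 Cre-negative and 12 of 14 Cre-positive libraries, and the region at chr7:128136648-128137853 in 5 and 12. From chr7:128140149 to 128177639, 37.5 kb that span the later part of Itgax and the start of Itgad, no library of the 32 had a peak.

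Itgam, the gene of CD11b, was split by the edge of the excess. Its promoter region (chr7:128062257-128062999) had cell-type ratios of 0.92 in cDC1, 1.12 in cDC2, 0.87 in migDC2 and 1.05 in DN migDC, and it was called in 13 Cre-negative and 12 Cre-positive libraries. In migDC1 the ratio there was 0.00, as no Cre-positive library of that type had signal in it. The next region (chr7:128063120-128063807) separated the groups in 2 cell types, with ratios of 1.85 in cDC1 and 2.48 in migDC2, and had 9 calls in each genotype. At chr7:128065415-128066135 the ratio was 1.25 to 1.59 with separation in 3 cell types, and at chr7:128088831-128089793 it was 1.42 to 1.5 with separation in 4. Near the end of the gene, at chr7:128115174-128115929, the region was called in 6 of 14 Cre-negative and 14 of 14 Cre-positive libraries, and separation held in all 5 types.

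Over the whole Itgam body the share was 51.2, 56.2 and 56.7 ppm in Cre-negative and 99.2, 101 and 106 ppm in Cre-positive cDC2 (1.87 ± 0.06, n = 3). It was 41.4, 43.8 and 45.4 ppm against 65.6, 72.0 and 79.0 ppm in cDC1 (1.66 ± 0.15, n = 3). The ratio was 1.58 ± 0.09 in migDC1 (n = 2), 1.60 ± 0.14 in migDC2 (n = 3) and 1.57 ± 0.21 in DN migDC (n = 3), and the groups did not overlap in any cell type. Itgam is also active in monocytes, macrophages and neutrophils. The summed share of 8 monocyte and macrophage markers was 148 to 307 ppm in Cre-negative and 156 to 323 ppm in Cre-positive libraries. Of these genes 6 to 8 held a peak in Cre-negative and 7 to 8 in Cre-positive libraries. The summed share of 5 neutrophil markers was 9.37 to 46.1 ppm and 9.56 to 45.0 ppm, with 1 to 4 and 1 to 3 genes holding a peak and Ly6g at 0 in all. Neither list separated the genotypes in any cell type, and the same held for the cDC1, B cell and plasmacytoid DC lists. In 1 cell type each, the cDC2 list was higher and the migration and T cell lists lower with Cre, and the natural killer list was higher in 1 type and lower in another; their part in the result was not tested.

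Itgad, the gene of CD11d, had the largest ratio of the 3 members, 4.89 ± 1.28 over the 14 Cre-positive libraries, against 2.18 ± 0.45 for Itgax and 1.66 ± 0.17 for Itgam. Migratory Cre-negative libraries held only 0 to 2 Itgad peaks, and the lists hold no signal under 200. The ratios of the migratory types thus rest on values near the floor, where missing peaks count as 0 and can raise a ratio. In cDC2 its share was 17.1, 24 and 33.2 ppm without Cre and 140, 150 and 183 ppm with Cre (6.36 ± 0.90, n = 3). In cDC1 it was 27.7, 35.8 and 45.9 ppm against 101, 115 and 130 ppm (3.17 ± 0.39, n = 3). The 2 resident types, with the highest Cre-negative levels, also had the highest Cre-positive levels. In migDC1 the values were 0 and 9.28 ppm against 20.6 and 29.7 ppm. In migDC2 they were 5.03, 5.93 and 6.26 ppm against 26.9, 28.1 and 33.5 ppm, and in DN migDC 5.18, 11.5 and 11.9 ppm against 39.4, 43.5 and 46.6 ppm. The ratio in DN migDC was 9.0 in plain and 3.56 in lettered titles, so its size there rests on which libraries are taken. No germline library had signal in Itgad except 1 knockout library with 4.02 ppm. Non-coding genes of the table (Gm39091 and 4931431B13Rik) overlap Itgad, so peaks there cannot be given to one of them.

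Of the 11 regions inside Itgad, 3 were called in no Cre-negative library and 4 in 1 of 14, and every one was called in more Cre-positive than Cre-negative libraries. Over the genome 0.213% of regions had a Cre-positive but no Cre-negative call, and 23.9% had more Cre-positive calls. A region needed peaks in 3 or more libraries, so those 3 entered the set through Cre-positive peaks. The window was chosen for this contrast, so nothing is read from these counts. The region at chr7:128177663-128178923 was called in 1 of 14 Cre-negative and 10 of 14 Cre-positive libraries, that at chr7:128182845-128184545 in 5 and 13, and that at chr7:128192964-128193686 in 8 and 14. The region at chr7:128179921-128181295 was called in 13 and 14 libraries, with ratios of 2.50 to 3.46. Past the gene, the last region of the stretch (chr7:128209375-128210199) was called in 12 and 14, with ratios of 1.30 to 5.52.

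Of the 28 regions outside the stretch, 23 separated the groups in no cell type, 3 in 1 and 2 in 2, and their ratios lay on both sides of 1. The stretch was drawn by separation in at least 3 types, so none outside it could reach 3. The genome shares of these counts are not given here, so nothing is read from them. The region at chr7:128226041-128226925 was called in 8 and 8 libraries with ratios of 0.79 to 1.10 in the 3 migratory types, and the shared start of 9130023H24Rik and Armc5 (chr7:128236984-128239222) had ratios of 0.96 to 1.07. On the other side, Pycard, the gene of the inflammasome adaptor ASC, had ratios of 0.92 to 1.12 at chr7:127992499-127994463. Other regions outside the stretch varied more between cell types. The ratio was 0.87 to 1.40 in Tgfb1i1 (chr7:128247369-128247875), 0.57 to 1.48 at the end of Rusf1 (chr7:128297647-128298410) and 1.04 to 2.44 near Trim72 (chr7:128002033-128002658). The first region past the stretch (chr7:128220019-128220248), called in 1 and 2 libraries, had a ratio of 1.7 in migDC1, the only type with a ratio. By separation in 3 or more cell types, a rule set after the values were seen, the edges fell between the region centres at -66.1 and -63.8 kb from the start of Itgax and between those at 80.3 and 90.6 kb. By 5 kb tiles separated in all 5 cell types the excess ran only from -14.5 to 65.5 kb, and from -4.5 to 55.5 kb with equal list length or with a signal of at least 400.

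**Figure D2:**
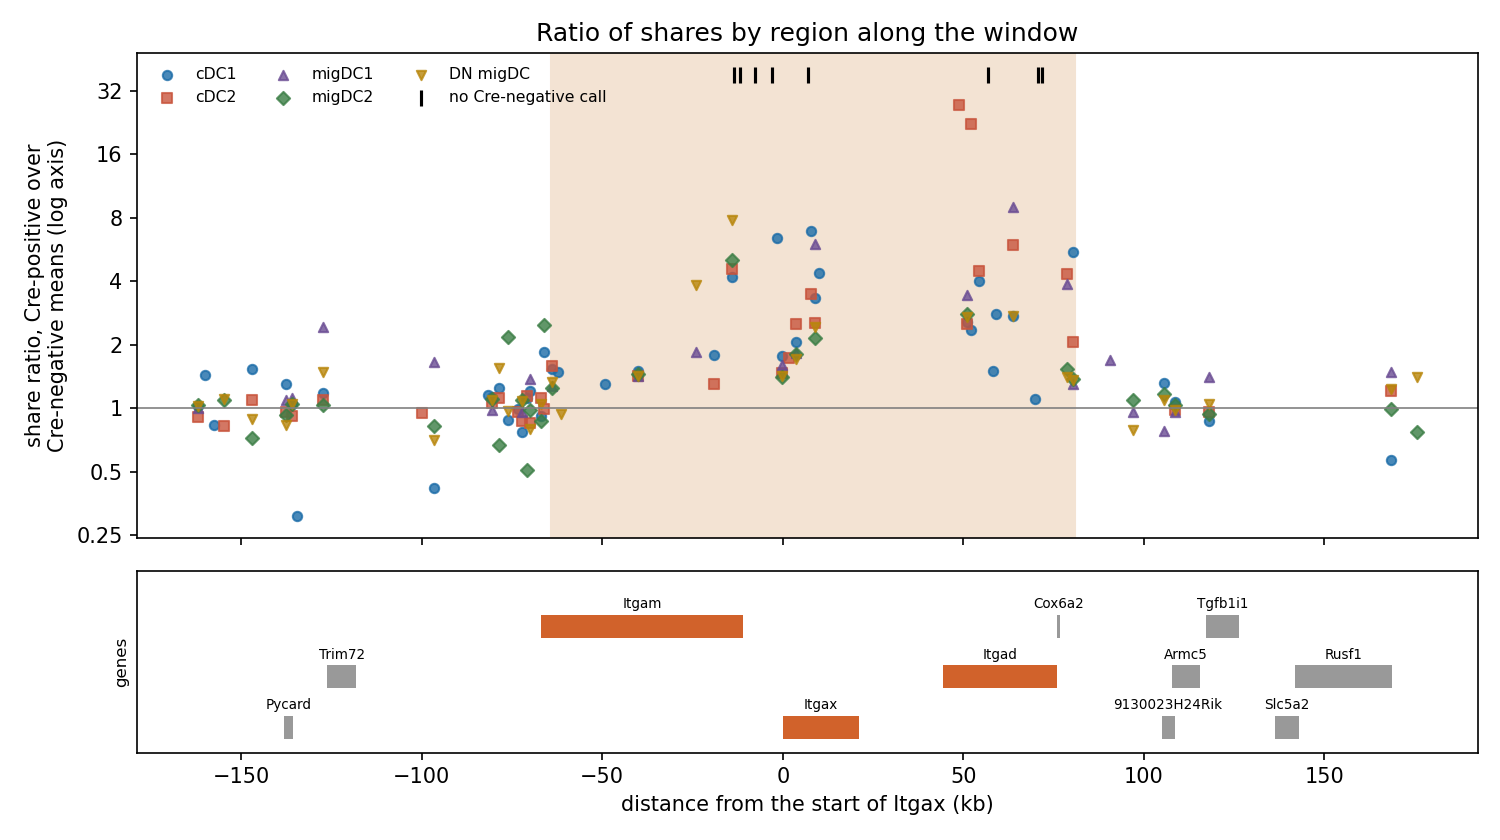
Ratio of mean shares, Cre-positive over Cre-negative (y axis, log scale), for each region and cell type against the distance of the region's centre from the start of Itgax in kb. Bars below are the protein-coding genes from Pycard onward, the shaded span is the stretch, and short ticks mark regions with no Cre-negative call; ratios of 0 are not drawn. Points lie about the line at 1 before and after the span and mostly above it inside, with values such as 1.72 to 2.52 at the largest Itgax region.

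Counted as calls, 28 of the 33 regions of the stretch had a peak in more Cre-positive than Cre-negative libraries, 5 in as many and 0 in fewer. Over the genome 23.9% of regions were called in more Cre-positive than Cre-negative libraries (21638 more, 24669 fewer). The median difference in the stretch was 3.0 libraries, against 0.0 in the rest of the window and 0.0 over the genome. In the rest of the window 7 regions had more calls, 6 fewer and 15 as many. Of the 33 regions, 8 were called in no Cre-negative library, as were 193 of all regions that had a Cre-positive call (0.213% of all). A region needed peaks in 3 or more libraries, so these 8 entered the set through Cre-positive peaks. A difference of at least 7 libraries was seen at 5 regions of the stretch and at 25 over the genome (0.0276%). In the stretch 4 regions were called in all 28 floxed libraries. The share of all regions so called is not given here, so nothing is read from that count.

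**Figure D3:**
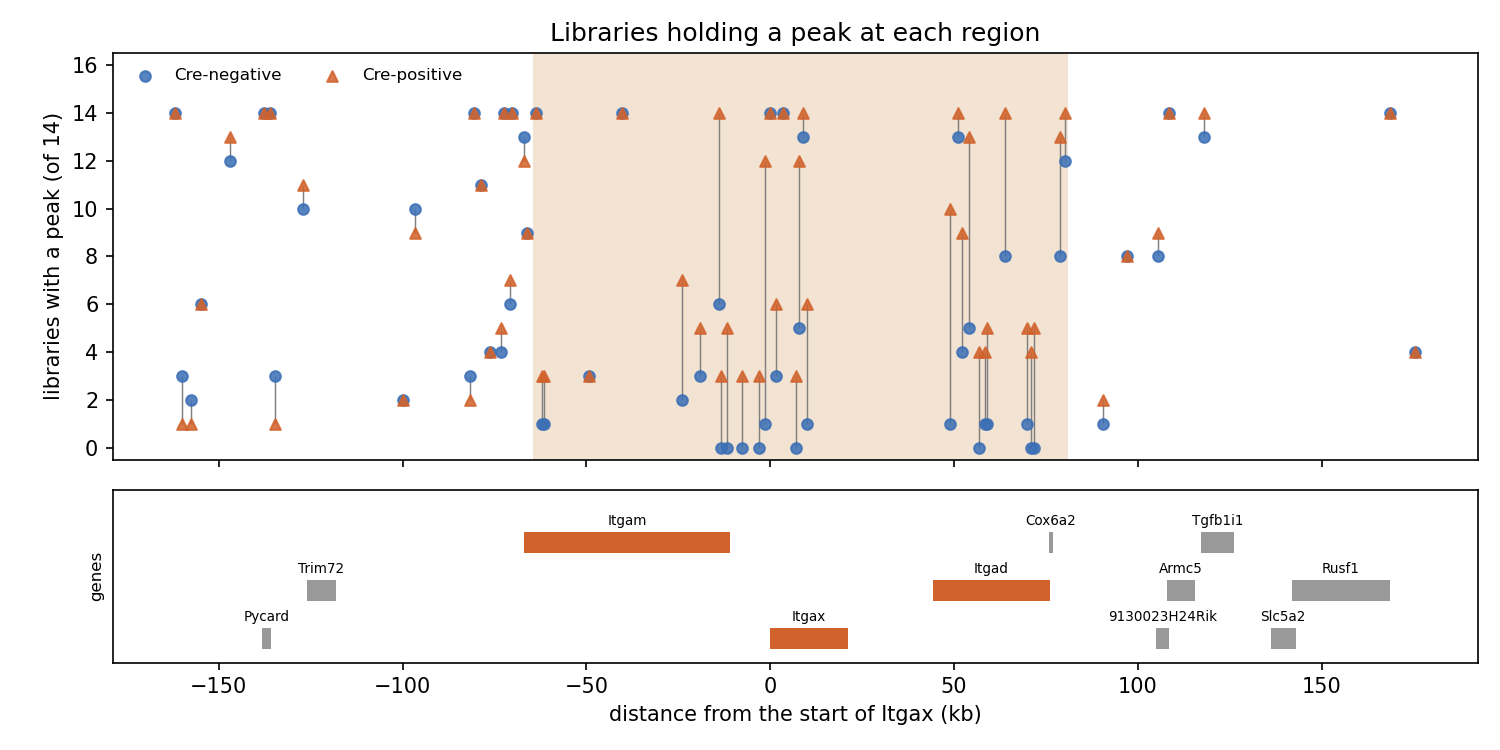
Number of libraries with a peak (y axis, of 14) at each region of the window in Cre-negative (circles) and Cre-positive (triangles) libraries, against distance from the start of Itgax in kb, with the protein-coding genes from Pycard onward below. Inside the shaded stretch 28 of 33 triangles lie above their circle and 5 on it, while outside it the symbols lie on both sides.

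Width and height were measured only at regions called in nearly every floxed library. Pooled over cell types, peaks at such regions of the stretch were wider with Cre, and higher at all but the first, with exceptions in single cell types. At the Itgax promoter region peaks were 1820 bp wide on average with Cre and 1382 bp without (ratio 1.32), and the signal per base was 3.0 and 2.63 (ratio 1.14). At the large region inside Itgax the ratio was 1.45 for width and 1.37 for signal per base. At chr7:128138016-128138998 the width ratio was 2.52 (841 against 334 bp) and the height ratio 1.2, and at the Itgad region chr7:128179921-128181295 these were 2.13 and 1.33. Which of them was larger differed by cell type: at the large region inside Itgax, width exceeded height in cDC2 (2.49 and 1.02) and cDC1 (1.55 and 1.37), while height exceeded width in migDC1 (1.65 and 1.36), migDC2 (1.40 and 1.16) and DN migDC (1.59 and 1.08). In Itgam the first region of the stretch had a width ratio of 1.40 and a height ratio of 0.96, and that at chr7:128088831-128089793 had 1.2 and 1.22. The authors' −log10 p of the strongest peak averaged 9.28 with and 7.59 without Cre at the Itgax promoter, and 9.23 and 6.99 at the large region. At the region of 9130023H24Rik and Armc5 the width ratio was 0.99 and the height ratio 1.01.

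**Figure D4:**
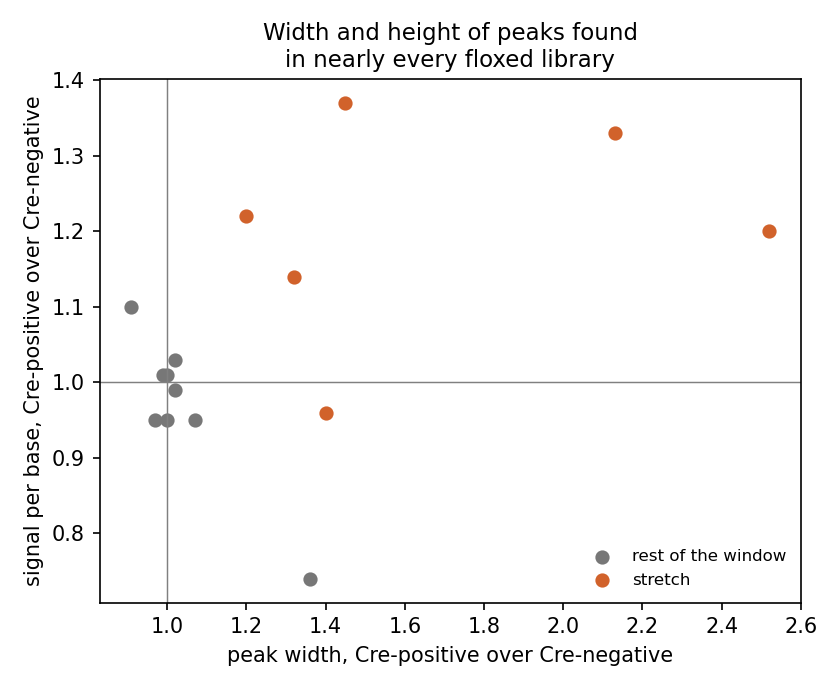
Ratio of mean peak width (x axis) and of mean signal per base (y axis), Cre-positive over Cre-negative, for the 15 regions of the window called in at least 27 of the 28 floxed libraries. Grey points from the rest of the window gather near 1 on both axes apart from 1 at a width ratio of 1.36 and a height ratio of 0.74, and the 6 points of the stretch lie at width ratios of 1.2 to 2.52.

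Set against the genome, complete separation of the genotypes in all 5 cell types was rare. Of 77383 tiles of 5 kb with a peak in at least 3 floxed libraries, 13 (0.0168%) had every Cre-positive library above every Cre-negative one in all 5 types, and 6 of them lay in the window, from -14.5 to 65.5 kb around the start of Itgax. By region 13 of 90465 (0.0144%) did so, 6 of them in the window, and 126 (0.139%) did so in at least 3 types, 15 of them in the window. By gene body 6 of 15448 protein-coding genes (0.0388%) did: Itgam, Itgax, Itgad, Rasgrf2, Fgfbp3 and Btaf1. With equal list length, or with covered bases in place of signal, 3 tiles of the window did so. Since the window was chosen for this contrast, these shares are given beside the counts and nothing is read from them.

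The 7 other tiles fell at 2 places. The 2 in Rasgrf2 on chromosome 13, a gene for a Ras guanine nucleotide exchange factor, had ratios of 1.86 and 3.08. The others lay on chromosome 19 between 36915001 and 37380000 (mm10). There the 2 tiles at Btaf1, a gene for a regulator of the TATA-binding protein, had ratios of 1.5 and 1.62, and a tile whose nearest gene was Marchf5 had 1.85. Separation in the opposite direction in all 5 types was found in 2 tiles, both at or near Mid1 on chromosome X, with ratios of 0.156 and 0.297.

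The genes whose shares followed that of Itgax most closely differed with the libraries taken. Over the 28 floxed libraries the correlation with Itgax (Pearson, log2 of share plus 1 ppm over the gene body and 2 kb on each side) was 0.87 for Itgam and 0.75 for Itgad. Among genes outside the window it was highest for Btaf1 (0.84), Kif11 (0.73), Tlr9 (0.69), Rasgrf2 (0.69) and Fgfbp3 (0.64), with 15925 genes compared. Over the 14 Cre-negative libraries it was 0.60 for Itgam and 0.13 for Itgad, and the closest genes were Fermt3 (0.95), Vmp1 (0.95), Fam111a (0.94), Rchy1 (0.93) and Ifitm2 (0.93). These are the highest of 15647 genes compared, so nothing is read from what they encode. Fermt3 encodes kindlin-3, which binds the tails of beta integrins in blood cells. These libraries share cell types and cohorts, and the correlations are descriptions without a test. The members were chosen by the Cre contrast, so their values over the 28 libraries follow in part from that choice. Btaf1, Rasgrf2 and Fgfbp3 likewise separated the genotypes in all 5 cell types.

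In the Cre-negative libraries alone the members had different orders over the cell types. Itgam was highest in cDC2 (54.7 ± 3.02 ppm, SD, n = 3), followed by cDC1 (43.6 ± 2.03), migDC2 (35.9 ± 1.51), DN migDC (35.7 ± 6.32, n = 3 each) and migDC1 (29.7 ± 2.58, n = 2). The cDC2 libraries lay above all others and the cDC1 libraries above all migratory ones, while migDC2 and DN migDC overlapped. The share of all genes with such an order is not given here, so nothing particular to Itgam is read from it. CD11b is named in the sort of cDC2 and migDC2, so the level of Itgam in these is a description of cells gated on its product. The source names of DN migDC carry CD11b too, without saying whether cells with or without it were taken.

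Itgax was highest in migDC2 (80.5 ± 2.45 ppm) and cDC2 (79.7 ± 8.01), which overlapped, followed by DN migDC (68.5 ± 7.57), cDC1 (60.4 ± 9.62, n = 3 each) and migDC1 (54.6 ± 2.01, n = 2). Each neighbour in that order overlapped with the next. Itgad was highest in cDC1 (36.5 ± 9.13 ppm) and cDC2 (24.8 ± 8.12), which overlapped, and lower in DN migDC (9.50 ± 3.75), migDC2 (5.74 ± 0.635, n = 3 each) and migDC1 (4.64 ± 6.56, n = 2). Its resident libraries (17.1 to 45.9 ppm) did not overlap with its migratory ones (0 to 11.9 ppm). The share of all genes that separate these libraries is not given here, so nothing particular to Itgad is read from this. The migratory values lay near the floor, and all resident libraries had plain titles while most migratory ones had lettered titles.

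**Figure D5:**
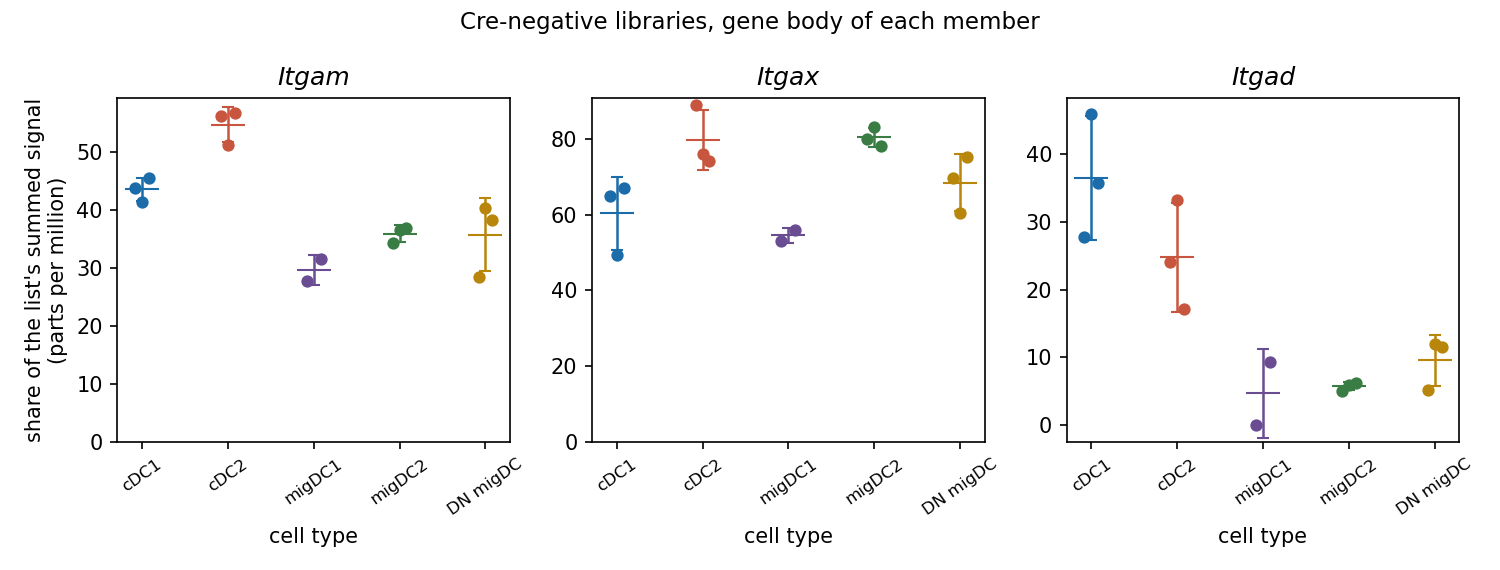
Share of each Cre-negative list's summed peak signal (y axis, ppm) in the gene bodies of Itgam, Itgax and Itgad by cell type, with points for libraries and bars for the mean and SD of 2 or 3 libraries. Itgad stands at 17.1 to 45.9 ppm in the resident types and at 0 to 11.9 ppm in the migratory types, while the Itgax values overlap between neighbouring cell types. The share of all genes without such overlap is not given.

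This contrast was not used to choose the members and was tested by region. Migratory (8) and resident (6) Cre-negative libraries were compared by Fisher's exact test, two-sided, on the number of libraries with a peak, with Benjamini-Hochberg adjustment over the 44662 regions tested. Of these 7988 were called more often in migratory libraries (17.9%) and 1788 less often (4.0%) at an adjusted p under 0.05. In the window 23 regions were tested, of which 1 was called more often and 2 less often. The 2 lay in the members: the region at chr7:128136648-128137853 in Itgax and that at chr7:128182845-128184545 in Itgad each had a peak in 0 of 8 migratory but in 5 of 6 resident libraries (Fisher's exact test, adjusted p = 0.0242 for both). The third lay outside the stretch (chr7:128226041-128226925) and had a peak in 8 of 8 migratory but in 0 of 6 resident libraries (Fisher's exact test, adjusted p = 0.00339). In the 2 regions inside the members the call was lost when only peaks with a signal of at least 400 were kept (adjusted p = 0.118 for both by Fisher's exact test), and in the Itgax region also with equal list length (0.0935). All 6 resident libraries had plain titles, as did 2 of the 8 migratory ones. With plain titles alone the 2 regions in Itgax and Itgad had an adjusted p of 0.555 (Fisher's exact test), a comparison of 2 against 6 libraries in which no region of the genome passed.

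The CD11b lineage (cDC2 and migDC2, 6 libraries) was compared with the cDC1 lineage (cDC1 and migDC1, 5 libraries) by an exact conditional test stratified by residence. By this exact test no region passed of the 39271 tested (0%, smallest adjusted p = 0.315), and 2163 had an unadjusted p under 0.05. With so few libraries the smallest unadjusted p of this exact test was 0.00500. A single region could therefore hardly pass after adjustment. In the window 22 regions were tested, none of which had an unadjusted p under 0.05. With all 28 floxed libraries and genotype as further strata, 1760 regions of the genome had more and 4880 fewer calls in the CD11b lineage at an adjusted p under 0.05 by the same exact test, 1 and 2 of them in the window. The lack of a passing Itgam region in the Cre-negative libraries is thus not read as a result. Since the window was chosen by an excess in Cre-positive libraries, its counts with all 28 libraries are not read either. The summed Itgam share of the Cre-negative cDC2 libraries lay above that of the cDC1 libraries, which was not tested.

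Other genes of integrin function were close to all genes in their ratios. Of 19 partners and activators of beta-2 integrins, 20 other integrin subunits and 8 factors known at Itgax or Itgam, none was above in Cre-positive libraries in 3 or more cell types with 2 kb added on each side, while all 3 members were in 5. Over all 15925 genes 0.239% were, so a count of 0 in lists of this size is what the background gives and says nothing particular to them. Fermt3, Apbb1ip, Itga1 and Itga10 were above in 2 cell types each, with mean ratios of 1.05 to 1.06. Rassf5, Itga6 and Irf8 were below in 2 each, with mean ratios of 0.97, 0.93 and 0.90. The share of all genes with such counts, or below in 3 cell types, is not given here, so nothing is read from them. The median ratio was 1.0, 0.99 and 1.03 in the 3 lists, 2.01 in the members and 1.0 over all genes. Itgb2, the common beta subunit, had a mean ratio of 1.05 (0.98 to 1.21 over the cell types) and Itgal, the alpha subunit of LFA-1, 0.97 (0.82 to 1.06). Spi1 had 1.05 (1.03 to 1.10), Irf8 0.90 (0.81 to 0.97) and Cebpa, below in Cre-positive libraries in 3 cell types, 0.93 (0.88 to 0.97).

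Between migratory and resident Cre-negative libraries, the partners and activators had 17 regions called more often and 1 less often of 76 tested (22.4% and 1.3%, against 17.9% and 4.0% over all regions tested), with a median difference of 20.8 percentage points in the share of libraries with a call. The other integrins had 12 and 3 of 75 (16% and 4.0%, median 20.8) and the factors 11 and 2 of 52 (21.2% and 3.8%, median 4.2), against a median of 16.7 over all regions tested. The shares of the 3 lists were thus near those over all regions. The members had 0 and 2 of 9, with a median of -50.0. Cyth1, the gene of cytohesin-1, which binds the beta-2 tail, had 7 of 19 tested regions more often called in migratory libraries. Zbtb46, a factor of conventional DC, had 4 of 15, Skap1, an adaptor, and Itgae, the gene of CD103, 3 of 6 each and Itgav 3 of 7. Spi1 had 3 more often and 1 less often of 5, Rap1a, a small GTPase that activates integrins, 2 and 1 of 5, and Itgb3 0 and 2 of 6. At Spi1 the region chr2:91090069-91090665 had a peak in 8 of 8 migratory but in 0 of 6 resident libraries (Fisher's exact test, adjusted p = 0.00339).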

How the data were processed

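Omni-ATAC-seq reads were processed by the authors, and 32 narrowPeak lists, 1 per library, were deposited. Bowtie2, deepTools and Genrich and the build mm10 are named per the submitters' processing notes; tool versions, settings and the handling of the Tn5 offset were not stated there. The lists have no header line, and their columns follow the narrowPeak layout. The signal deposited by the authors is at least 200 in every list and sums over a peak's width; the −log10 p deposited by the authors is described only. Signal was spread evenly over each peak and divided by the list's sum over chromosomes 1 to 19 and X, which keeps it within its own list.

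A library called a region where the overlap with one of its peaks reached 50% of either length. Tests were two-sided, at an adjusted p of 0.05, over regions with 3 or more libraries in each state (called, not called). Python 3 scripts (scipy, numpy, pandas) were tested on simulated data. Alternatives were tile size, covered bases, undivided signal, equal list length (the 38455 strongest peaks), a signal of at least 400, the overlap and library minimums, title sets and leaving out each library.

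Groups came from the labels, and no 2 libraries shared more than 0.744% of their peaks exactly. The members, gene lists and tests were chosen with earlier results of these data known. Named genes are the members and genes outside the window that correlate most with Itgax. Up to 5 tiles outside the window by ratio and up to 8 listed genes by number of called regions are named too. Pycard, Armc5, Itgb2, Itgal, Rassf5, Itga6, Irf8, Cebpa, Mid1 and single regions were named after their values were seen. One item of the window is not reported here. Exons and untranslated regions were not used here.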

Additional observations from a re-analysis of the deposited data

How the results depend on the processing

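The share ratios pooled over the 14 Cre-positive libraries (window, stretch and the 3 members) kept their direction and stayed within 1 SD under the 6 alternatives and without any single library. Ratios of single cell types were recomputed by title set only, and some moved further: in DN migDC Itgad had 9.0 with plain and 3.56 with lettered titles against 4.55 ± 0.38 (n = 3), and Itgax 1.38 with plain titles against 1.80 ± 0.38 (n = 3). The stretch ratio of 2.21 ranged from 1.89 to 2.45 over 6 alternatives and from 2.13 to 2.26 without any single library, and the window ratio of 1.41 from 1.34 to 1.47 and from 1.39 to 1.43. The germline ratio in the stretch ranged from 1.08 to 1.12 over 3 alternatives and from 1.08 to 1.16 without any single library. The edges depended on the processing. The 6 tiles in the window became 3 with covered bases, 3 with equal list length and 10 when separation in 3 cell types was enough, an alternative chosen after seeing the data as were those by region; the 13 over the genome became 5 with covered bases and 112 with separation in 3 types. The excess, from -14.5 to 65.5 kb around the start of Itgax by tiles, began at -44.5 kb with undivided signal, ended at 10.5 kb with covered bases, ran from -4.5 to 55.5 kb both with equal list length and with a signal of at least 400, and from -64.1 to 80.7 kb by regions separated in at least 3 types. Without DN migDC Cre-positive replicate 1 it ran from -44.5 to 80.5 kb, and without DN migDC Cre-negative replicate 2 it ended at 80.5 kb; over all libraries left out in turn the start lay between -44.5 and -14.5 kb and the end between 65.5 and 80.5 kb.

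In the migratory comparison the 7988 regions called more often became 15347 with all 28 floxed libraries and genotype as strata and 0 with plain titles alone, and the 1788 called less often became 3767 with equal list length, 1108 with a signal of at least 400, 9296 with all floxed libraries and 0 with plain titles (2 against 6 libraries). In the window the 1 more often called became 2 with a signal of at least 400, 5 with all floxed libraries and 0 with plain titles, and the 2 less often called became 5 with equal list length, 14 with all floxed libraries and 0 with plain titles. The window was chosen by an excess in the Cre-positive libraries. Nothing is therefore read from its counts with all floxed libraries, here or in the lineage comparison. Without any single library the counts over the genome were 6451 to 7756 and 878 to 1914, and in the window 1 to 2 and 2 to 4. The region in Itgax had an adjusted p of 0.0935 with equal list length and 0.118 with a signal of at least 400, over a range of 0.00448 to 0.555, and that in Itgad 0.118 with a signal of at least 400, over a range of 0.00757 to 0.555. In the lineage comparison all 28 floxed libraries gave 1760 regions more and 4880 less often called in the CD11b lineage, 1 and 2 of them in the window, where the Cre-negative libraries gave 0 of each, and 0 without any single library. No paired analysis was possible because the labels give the libraries no replicate numbers that groups share. Depth is unknown, so absence from a list does not show closed chromatin.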
